A study of Mus musculus with 23 samples.

Results

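The Cyp3a family of mouse liver was described here across 23 arrays, through every probe set that the array annotation assigns to Cyp3a11, Cyp3a13, Cyp3a16, Cyp3a25 or Cyp3a44 alone. Each gene had exactly 1 such probe set, so the family comprised 5 of 18193 genes and 5 of the 34945 probe sets assigned to a single gene, out of 45037 probe sets in all. A further probe set, assigned to Cyp3a41a and Cyp3a41b together, was left out. Liver RNA came from male C3H mice that were wild type or lacked Ctnnb1, the gene of beta-catenin, in hepatocytes. In the knockout, Cre recombinase driven by the albumin promoter (Alb-Cre) acted on loxP sites in the Ctnnb1 introns around exons 3 and 6, and the alleles had been backcrossed into C3H/N. Mice of both genotypes ate 0.05% phenobarbital (PB) for 12 weeks or food without it. The labels call the control agent water, whereas the treatment description gives a drug-free diet. The groups were wild-type controls (5 arrays), wild type with PB (4), knockout controls (7) and knockout with PB (7). The labels number the samples of a group but do not state whether these were different animals. The spread behind each p-value is therefore that between the deposited samples, which may be technical. The age of the mice was not given in the sources used here.

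Cyp3a enzymes are cytochrome P450 monooxygenases of the endoplasmic reticulum that oxidise many drugs, steroids and bile acids. Cyp3a11 is the main adult hepatic form and the usual mouse counterpart of human CYP3A4, Cyp3a25 is a second adult form, and Cyp3a13 is expressed in intestine as well as liver. Cyp3a16 is known as a fetal and neonatal form, and Cyp3a44 as a form favoured in female liver. Transcription of the family is induced by the xenobiotic receptors PXR (Nr1i2) and CAR (Nr1i3), which bind DNA with the retinoid X receptor Rxra. Phenobarbital is the classic activator of CAR. Beta-catenin maintains the perivenous gene programme, which holds several other P450 genes, so the design asks whether PB acts on Cyp3a genes without hepatocyte beta-catenin.

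All 5 genes lie on chromosome 5 of GRCm38.p6. In gene order, Cyp3a13 stands apart, and Cyp3a57, Cyp3a16, Cyp3a41b, Cyp3a41a, Cyp3a44, Cyp3a11, Cyp3a25 and Cyp3a59 follow one another, with 4 Cyp3a pseudogenes in the same annotation. The 250 bases upstream of the start are shown for Cyp3a11, Cyp3a44 and Cyp3a16. Cyp3a11 and Cyp3a44 passed the test for PB averaged over genotypes, a contrast added after the values were seen. In neither genotype alone did they pass, except under some alternatives. Among the members, Cyp3a16 had the upstream stretch most like that of Cyp3a44, and Cyp3a41a and Cyp3a41b were not aligned. The stretches shown are RefSeq sequences of the reference mouse, not of C3H, at chr5:145879855-145880104, chr5:145805875-145806124 and chr5:145469724-145469973, all on the minus strand. Capitals mark the hexamers AGGTCA and AGTTCA on either strand, the core letters that PXR and CAR bind as pairs with Rxra.
Cyp3a11: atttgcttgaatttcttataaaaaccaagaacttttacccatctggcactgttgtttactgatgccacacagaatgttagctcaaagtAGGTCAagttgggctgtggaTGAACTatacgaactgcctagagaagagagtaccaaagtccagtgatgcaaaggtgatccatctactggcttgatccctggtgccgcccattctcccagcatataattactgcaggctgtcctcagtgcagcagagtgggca
Cyp3a44: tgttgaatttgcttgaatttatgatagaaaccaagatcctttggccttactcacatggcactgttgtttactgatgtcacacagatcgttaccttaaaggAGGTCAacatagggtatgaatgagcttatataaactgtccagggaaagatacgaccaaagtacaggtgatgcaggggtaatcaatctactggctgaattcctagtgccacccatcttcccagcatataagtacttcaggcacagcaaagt
Cyp3a16: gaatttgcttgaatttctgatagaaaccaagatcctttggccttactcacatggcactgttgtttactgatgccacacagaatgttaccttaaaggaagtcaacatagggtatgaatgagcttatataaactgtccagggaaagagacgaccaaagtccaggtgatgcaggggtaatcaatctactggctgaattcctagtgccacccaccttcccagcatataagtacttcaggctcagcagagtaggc
The Cyp3a11 stretch held AGGTCA 162 to 157 bases before the start and AGTTCA on the other strand at 142 to 137. The Cyp3a44 stretch held a single AGGTCA, at 150 to 145, and the Cyp3a16 stretch held neither hexamer. Of the members not printed, Cyp3a25 had AGGTCA at 176 to 171 and, on the other strand, at 155 to 150, and Cyp3a13 had no match. Cyp3a25 had 2 annotated upstream stretches, of which only the first was searched and aligned. AGGTCA occurred in 4607 and AGTTCA in 3891 (11.8%) of the 32851 upstream stretches of this length in the table. No searched stretch of a member held the everted repeat (ER6) or direct repeat (DR3, DR4) arrangements of these hexamers, each present in at most 0.0152% of stretches. None matched the TCF/LEF cores CTTTGAT (3.21% of stretches) or CTTTGTT (5.03%). Both strands were searched and no matches overlapped in a member. Only exact letters within these 250 bases were searched, so sites with other letters or farther upstream could not be found. Aligned end to end, the Cyp3a16 and Cyp3a44 stretches were identical at 236 of 246 aligned bases (95.9%). Cyp3a11 shared 83.7% with Cyp3a16 and 81.7% with Cyp3a44, while Cyp3a13 shared 69.8% to 72.1% with the other members.

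Values are log2 signals from robust multi-array averaging (RMA), so a difference of 1 is a doubling of signal. Some arrays stood apart from their group. Knockout controls 2, 6 and 7 had the 3 lowest array weights among the knockout controls, and their summed macrophage markers (13.8 to 14.2) exceeded those of the other 4 knockout controls (11.8 to 13.4). Knockout PB arrays 4, 5 and 7 summed to 13.522, 13.607 and 13.455, also above those 4 controls. Fits without knockout controls 2, 6 and 7 kept these PB arrays. They also kept knockout control 1, which summed to 13.381, whereas controls 3, 4 and 5 summed to 11.789, 11.961 and 11.919. Arrays with high macrophage sums therefore left the control side only, and not all of those on that side. The part of this imbalance in the PB differences was not tested. Over 13 macrophage markers, the summed log2 level was 10.8 to 11.8 in wild type and 11.8 to 14.2 in knockout livers, and 9 of 13 were higher in knockout than wild-type controls. Endothelial markers (7 of 8), stellate markers (7 of 10) and cholangiocyte markers (2 of 4) were also higher there, where 12.8% of all probe sets were. Of 6 lymphocyte markers 1 was higher, a share near that of all probe sets. The part of these cell types in the Cyp3a differences between genotypes was not tested. Hepatocyte markers were high in every array. Their summed level was 16.94 to 17.01 in wild-type controls, 16.88 to 16.92 in wild type with PB, 17.03 to 17.08 in knockout controls and 16.99 to 17.03 in knockout with PB, so that in wild type the PB arrays lay below the controls and these below the knockout controls. The part of this shift in the Cyp3a values was not tested. In whole liver RNA, fewer cells of a type and less RNA per cell cannot be told apart. Ctnnb1 itself had a median of 12.20 in wild-type controls (12.18 to 12.23) and 12.19 in knockout controls (12.11 to 12.42), with a fitted difference of 0.05 (SE 0.0552, limma adjusted p = 0.555). Where its probes lie relative to the deleted exons was not analysed here, so this probe set does not check the genotype labels. Cyp2e1, a perivenous P450 gene, did follow them: its median was 14.11 in wild-type controls and 9.11 in knockout controls, without overlap.

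Cyp3a11 carried a very high signal in every liver and read slightly higher with PB in both genotypes, a difference that passed the test only when averaged over genotypes or under some alternatives. Wild-type controls 1 to 5 read 14.18, 14.33, 14.23, 14.23 and 14.32, and the 4 wild-type PB arrays read 14.40, 14.44, 14.40 and 14.38. Every PB array exceeded every control, as was so for 5.54% of probe sets tested. Knockout controls ranged from 14.14 to 14.32 with a median of 14.28, and knockout PB arrays from 14.33 to 14.46 with a median of 14.37. These groups did not overlap either, which held for 0.482% of probe sets higher with PB in knockout, but the gap between them was only 0.0042 on the log2 scale, against 0.0561 in wild type. The mean was 0.15 higher than in controls in wild type (SE 0.0504, 1.11-fold, 95% interval 1.03 to 1.19) and 0.15 higher in knockout (SE 0.0401, 1.11-fold, 1.04 to 1.17). Neither difference passed the threshold of 0.05 over the 24089 probe sets tested, with limma adjusted p = 0.115 in wild type and 0.0515 in knockout. In knockout the result sat at the threshold: it passed without knockout controls 2, 6 and 7 (0.19, adjusted p = 0.0135), in which Cyp3a11 read 14.28 to 14.32 against 14.14 to 14.28 in the other knockout controls. It also passed when knockout control 2, 6 or 7 was left out alone (adjusted p = 0.0492, 0.0383 and 0.0441). Knockout PB arrays with high macrophage markers stayed in all of these fits. Other alternatives moved the knockout result away from the threshold. The limma adjusted p was 0.15 with only the groups compared, 0.0858 with a replicate block, 0.0768 without the filter and 0.0624 with median centring. With single arrays left out it ran from 0.0383 to 0.112. Averaged over both genotypes, a contrast added after the values were seen and in which 3.04% of probe sets rose, Cyp3a11 rose by 0.15 (SE 0.0322, limma adjusted p = 0.00639).

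**Figure D1:**
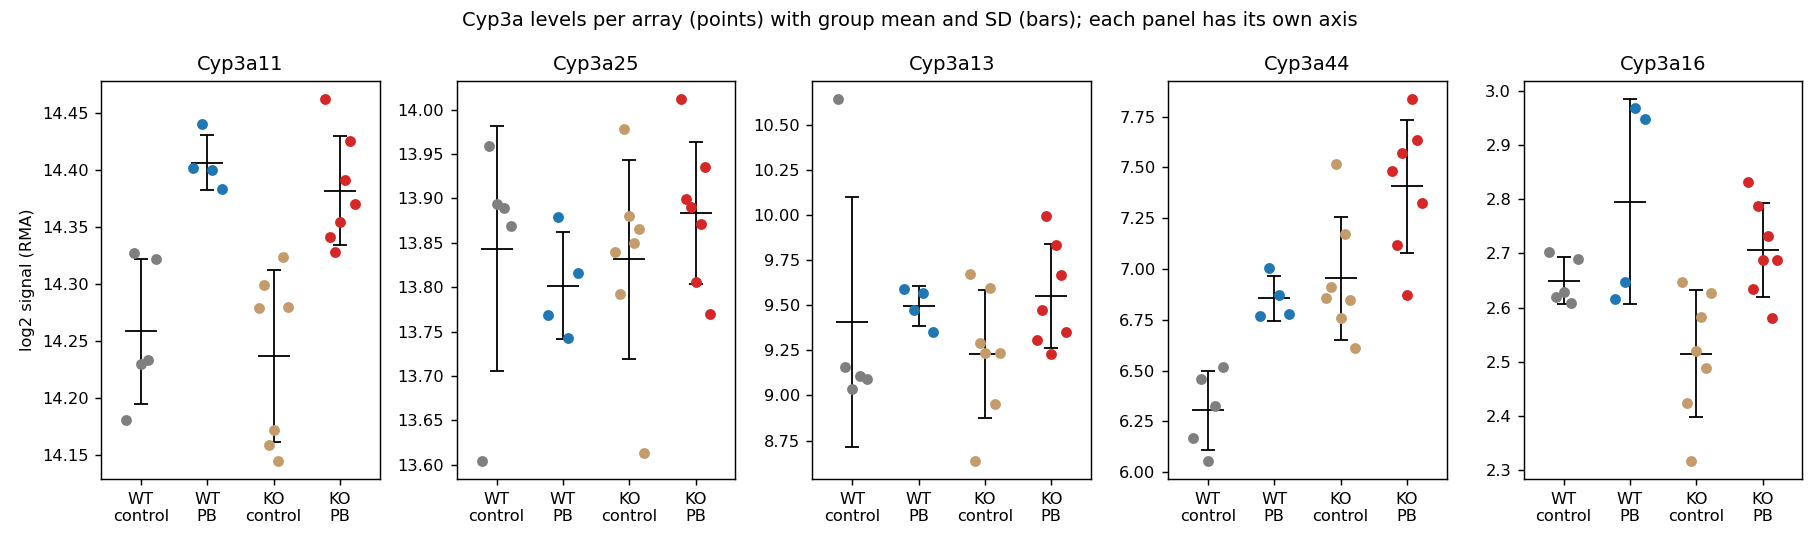
Log2 RMA signal of the 5 Cyp3a genes in each of the 23 arrays (points), by genotype and treatment, with the group mean and SD as black bars; the vertical axes differ between panels. Cyp3a11 lies between 14.14 and 14.46 throughout and is higher in every PB array than in every control of its genotype. Group means of Cyp3a44 are higher with PB and in the knockout, with overlap between the knockout groups and between the PB groups. Wild-type control 1 stands apart for Cyp3a13 and Cyp3a25.

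The Cyp3a11 signal came close to the largest that these arrays gave. The highest value of any probe set was 14.79 to 14.92 per array, and Cyp3a11 ranked between 7 and 29 among 45037 probe sets. In wild-type controls the mean distance to the array maximum was 0.66, equal to 1.58-fold, and with PB it was 0.51. Among the 29 tested probe sets with a wild-type control mean of at least 14, none passed limma's test for PB in wild type (3 at an unadjusted p under 0.05), and the largest positive difference was 0.15, for Scd1, a fatty acid desaturase. Cyp3a11 had the second largest of these 29, and in knockout its difference was the largest of 26, of which none passed (7 at an unadjusted p under 0.05). The 95th percentile of the differences was 0.12 in wild type and 0.08 in knockout for probe sets at 14 or more, and 0.31 and 0.25 for the 1584 and 1572 with control means between 10 and 12. For control means between 13 and 14, where Cyp3a25 lay, it was 0.21 in wild type and 0.25 in knockout. Spread was also small at the top: the median within-group SD was 0.058 for probe sets at 14 or more and 0.16 below 6, and 0.0589 for Cyp3a11. Whether the upper end of the signal range limited the measured Cyp3a11 response was not tested.

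**Figure D2:**
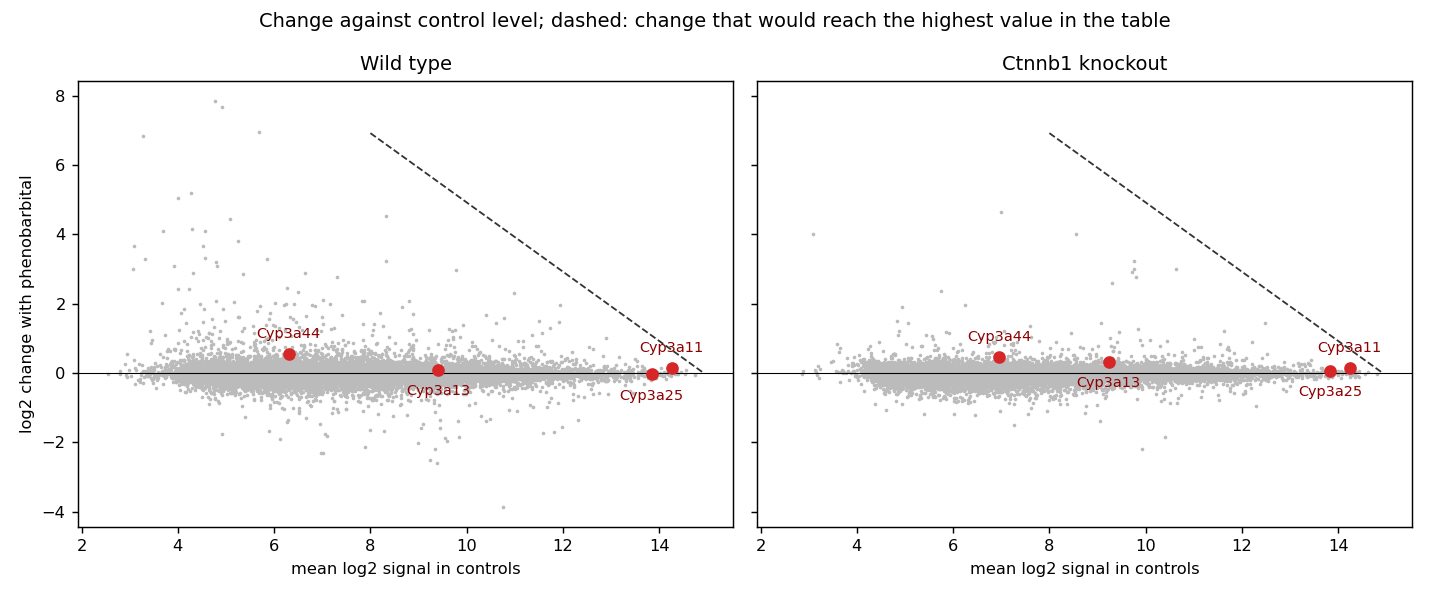
Log2 change with PB against the mean log2 signal of the controls for all tested probe sets (grey) in wild type and in Ctnnb1 knockout, with the 4 tested Cyp3a genes in red; the dashed line marks the change that would bring a probe set to the highest value of the table. Cyp3a11 and Cyp3a25 lie at the right end, where the range of changes is narrow, and Cyp3a44 and Cyp3a13 lie far below the line.

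Cyp3a25, the other bright member, did not pass the test in any comparison. Wild-type controls 1 to 5 read 13.60, 13.96, 13.89, 13.89 and 13.87, and wild-type PB arrays read 13.77, 13.88, 13.74 and 13.82. Knockout controls ranged from 13.61 to 13.98 with a median of 13.85, and knockout PB arrays from 13.77 to 14.01 with a median of 13.89. All 4 groups overlapped, and the order of their means (wild type with PB, knockout controls, wild-type controls, knockout with PB) separated no neighbours. The PB difference was -0.04 in wild type (SE 0.0727, limma adjusted p = 0.871; -0.10 without wild-type control 1, adjusted p = 0.55) and 0.05 in knockout (SE 0.0579, adjusted p = 0.735). The 95% intervals allow a wild-type change between 0.875-fold and 1.08-fold, and a knockout change between 0.954-fold and 1.13-fold. Cyp3a25 ranked 37 to 78 from the top of the array, about 1.04 below the maximum on average, so its distance to the upper end was larger than that of Cyp3a11.

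Cyp3a44 was the only tested member that passed the test between genotypes: it was higher in the knockout, both without and with PB. Wild-type controls 1 to 5 read 6.17, 6.46, 6.05, 6.33 and 6.52, all below the lowest knockout control. Knockout controls ranged from 6.61 to 7.52 with a median of 6.86. The difference was 0.65 (SE 0.149, 1.57-fold, 95% interval 1.26 to 1.94, limma adjusted p = 0.00409). Of all probe sets tested, 12.8% were higher in knockout than wild-type controls and 5.95% were higher without overlap. With PB, wild-type arrays read 6.77, 7.01, 6.87 and 6.78, and knockout arrays ranged from 6.87 to 7.84 with a median of 7.48. These ranges overlapped through the lowest knockout array, and the difference was 0.55 (SE 0.16, 1.46-fold, limma adjusted p = 0.0203), in a comparison where 10.2% of probe sets were higher. That call was lost without wild-type PB array 1 (adjusted p = 0.0615) or 4 (adjusted p = 0.0611). Leaving out knockout controls 2, 6 and 7 gave a difference without PB of 0.77 (adjusted p = 0.00547). Those 3 arrays read 6.61 to 6.91 for Cyp3a44, and the other 4 knockout controls 6.76 to 7.52.

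Cyp3a44 also read higher with PB, although neither genotype alone passed the test. In wild type the 4 PB arrays lay above all 5 controls, again a pattern of 5.54% of probe sets, with a gap of 0.25, and the difference was 0.55 (SE 0.171, 1.47-fold, limma adjusted p = 0.0778). In knockout the ranges overlapped, and the difference was 0.45 (SE 0.136, 1.37-fold, adjusted p = 0.078). It passed without knockout control 3 (0.55, adjusted p = 0.0189) or knockout PB array 4 (0.54, adjusted p = 0.0226), the highest control and the lowest PB array. Without knockout controls 2, 6 and 7 it was 0.33 (adjusted p = 0.228). Leaving out either of the same 2 knockout arrays, which enter only the estimate of spread there, took the wild-type difference past the threshold (adjusted p = 0.0428 and 0.0477), and so did a fit to the wild-type arrays alone (adjusted p = 0.00928). A fit to the knockout arrays alone did not take the knockout difference past it (limma adjusted p = 0.2), nor did array weights (0.37, adjusted p = 0.163). Averaged over genotypes, Cyp3a44 rose by 0.50 with PB (SE 0.109, 1.42-fold, limma adjusted p = 0.00603), and averaged over treatments it was 0.60 higher in knockout (SE 0.109, adjusted p = 0.00025), as were 19.4% of probe sets. Both averaged contrasts were added after the values were seen. The group means ran from wild-type controls (6.30 ± 0.20, SD, n = 5) through wild type with PB (6.86 ± 0.11, n = 4) and knockout controls (6.95 ± 0.30, n = 7) to knockout with PB (7.41 ± 0.33, n = 7). The middle pair, wild type with PB and knockout controls, overlapped, as did knockout controls and knockout with PB. Cyp3a44 lay between rank 7773 and 15860 from the top, 7.95 below the array maximum on average. Sequences of the probes were not analysed here, so signal from close copies such as Cyp3a41a and Cyp3a41b cannot be told apart from Cyp3a44.

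Cyp3a13 varied most between arrays of a group, with a within-group SD of 0.412, and did not pass the test in any comparison. Wild-type controls 1 to 5 read 10.65, 9.16, 9.04, 9.11 and 9.09, and wild-type PB arrays read 9.59, 9.48, 9.57 and 9.35. A single array, wild-type control 1, lay above every other array of the study, and it also had the lowest Cyp3a25 signal of all. The other 4 wild-type controls lay below all 4 PB arrays. The PB difference in wild type was 0.09 (SE 0.259, limma adjusted p = 0.932) with that array and 0.40 without it (adjusted p = 0.297). Knockout controls ranged from 8.63 to 9.67 with a median of 9.23, and knockout PB arrays from 9.23 to 9.998 with a median of 9.47. The knockout difference was 0.32 (SE 0.206, 1.25-fold, 95% interval 0.929 to 1.68, adjusted p = 0.492), and 0.10 without knockout controls 2, 6 and 7 (adjusted p = 0.848). Order of the means ran from knockout controls (9.23) over wild-type controls (9.41) and wild type with PB (9.50) to knockout with PB (9.55), with overlap between all neighbours. Intestine markers (5 tested) summed to 12.0 to 12.3 in wild-type controls and 12.5 to 12.9 in wild type with PB, where Apoa4, an apolipoprotein that liver also makes, was the marker that passed. Their part in the Cyp3a13 values was not tested.

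Cyp3a16 read near the lower end of the array's range in every liver. Its values lay between 2.32 and 2.97, below the 40th percentile of the array (4.52 to 4.598) in 23 of 23 arrays, and it did not enter the tests. Group means were 2.51 ± 0.12 (SD, n = 7) in knockout controls, 2.65 ± 0.043 (n = 5) in wild-type controls, 2.71 ± 0.087 (n = 7) in knockout with PB and 2.80 ± 0.19 (n = 4) in wild type with PB. Each neighbouring pair overlapped. In a fit with no filter on low values, the PB difference was 0.15 in wild type (limma adjusted p = 0.45) and 0.19 in knockout (adjusted p = 0.144). The fetal liver list, whose genes share the developmental window of Cyp3a16, had 5 tested members, none of which passed limma's threshold in the 5 comparisons or the averaged contrasts. At an unadjusted p under 0.05 the count was 2 for knockout against wild type averaged over treatments and 0 in the others.

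Across the family, 0 of 4 tested members passed for PB in wild type, where 3.83% of probe sets passed, and 0 of 4 in knockout, where 2.89% passed. At an unadjusted limma p under 0.05 the count was 2 of 4 in each genotype, Cyp3a11 and Cyp3a44, where 15.9% of all probe sets tested lay under it in wild type and 15.5% in knockout. For knockout against wild type, 1 of 4 passed without PB (22.6% of probe sets) and 1 of 4 with PB (18.3%), in both cases Cyp3a44. No member passed the interaction test, which asks whether the PB difference itself differed between genotypes and in which 1.03% of probe sets passed. None did at an unadjusted p under 0.05 either, where 10.7% of probe sets did. The interaction was 0.00 for Cyp3a11 (95% interval -0.14 to 0.13), 0.09 for Cyp3a25 (-0.10 to 0.29), 0.23 for Cyp3a13 (-0.45 to 0.92) and -0.10 for Cyp3a44 (-0.55 to 0.36). For Cyp3a11 the interval limits any difference in response between genotypes to between 0.91-fold and 1.10-fold of measured signal. For Cyp3a11, knockout minus wild type was -0.02 without PB (95% interval -0.11 to 0.07) and -0.02 with PB (-0.12 to 0.07). The signal of this probe set lies near the upper end of the array's range, and whether that limits these differences was not tested. Averaged over genotypes, a contrast added after the values were seen, 2 of 4 members rose with PB, against 3.04% of probe sets. Each PB comparison shares a control group with the genotype comparison without PB, so these are not independent of each other.

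**Figure D3:**
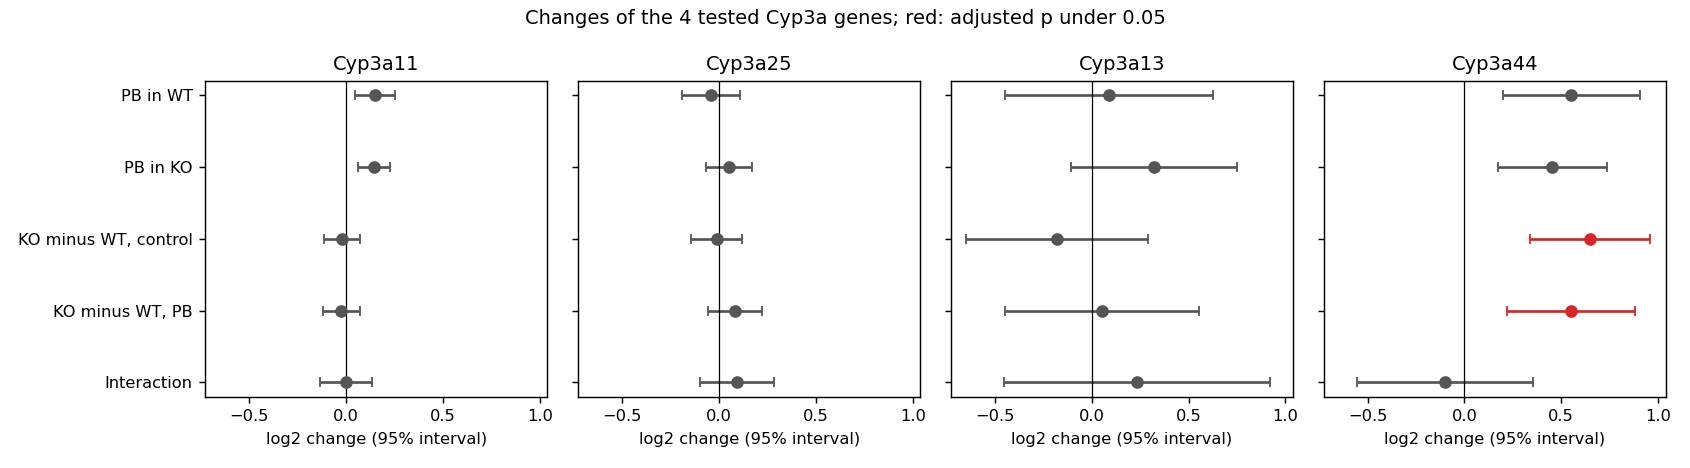
Log2 change with its unadjusted 95% interval for the 4 tested Cyp3a genes in the 5 comparisons; red marks an adjusted p under 0.05. The red points are the knockout minus wild type differences of Cyp3a44, 0.65 without and 0.55 with PB, and all interaction intervals include 0.

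Among the receptors that drive the family, Nr1i3 was lower in the knockout. Nr1i3 (CAR) had a median of 8.70 in wild-type controls (8.56 to 8.87) and 7.41 in knockout controls (6.09 to 8.19). Its knockout minus wild type difference was -1.54 without PB (SE 0.258, limma adjusted p = 0.000242), and -2.24 with PB (SE 0.276, adjusted p = 6.68e-06). With PB, Nr1i3 differed by -0.76 in knockout (SE 0.235, adjusted p = 0.09), and by -1.35 without knockout controls 2, 6 and 7 (adjusted p = 4.5e-06), where its interaction also passed (-1.29, adjusted p = 0.000952). With all 23 arrays the Nr1i3 interaction did not pass. Leaving out single arrays, it ran from -0.882 to -0.532 and never passed (adjusted p 0.278 to 0.705). Nr1i2 (PXR) did not pass between genotypes (-0.24 without PB, adjusted p = 0.158, and 0.20 with PB, adjusted p = 0.299). With PB, Nr1i2 rose by 0.40 in knockout (SE 0.109, adjusted p = 0.0485), a call lost when any of 17 of the 23 arrays was left out (adjusted p 0.0158 to 0.104 over all 23), and changed by -0.03 in wild type (adjusted p = 0.957). Rxra, the shared partner, did not pass for PB in wild type (0.04, adjusted p = 0.928) or knockout (-0.24, adjusted p = 0.136; -0.36, adjusted p = 0.0149 without those 3 arrays), nor between genotypes. Of 16 tested receptors and partners, 0 passed for PB in wild type by limma, where 3.83% of all probe sets passed. At an unadjusted p under 0.05 the count there was 3, a share near the 15.9% of all probe sets. In knockout 1 passed, Nr1i2, where 2.89% of all probe sets did.

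Most other known PXR and CAR targets tested rose with PB. Of 25 tested, 16 rose in wild type with a median change of 1.47, and 14 rose in knockout with a median of 0.84, while none fell. Of all probe sets, 1.82% rose in wild type and 1.15% in knockout, and the median change over all probe sets was 0.00 in both. Cyp2b10, the standard CAR target, rose by 6.96 in wild type (SE 0.368, limma adjusted p = 1.09e-11) from a median of 5.66 to 12.64, and by 3.01 in knockout (SE 0.293, adjusted p = 2.49e-06) from 10.20 to 12.82. Its knockout controls were already 4.06 above wild-type controls (SE 0.321, adjusted p = 8.93e-09), and its interaction was -3.95 (adjusted p = 2.67e-05). These values are for the Cyp2b10 probe set with the highest mean, and another Cyp2b10 probe set differed by 7.84 with PB in wild type. The Cyp3a differences with PB ran from -0.04 to 0.55 in wild type and from 0.05 to 0.45 in knockout. Proteins that serve P450 enzymes changed in part: of 8 tested genes for electron supply and heme, 3 rose with PB in wild type. Alas1, the first enzyme of heme synthesis, rose by 3.24 (SE 0.644, adjusted p = 0.00438), Cyb5r3 by 0.37 (adjusted p = 0.039, lost when any single wild-type array other than control 4 was left out) and Cyb5a, cytochrome b5, by 0.26 (adjusted p = 0.00866). In knockout Cyb5a rose by 0.23 (adjusted p = 0.00388) and Pgrmc1 by 0.15 (adjusted p = 0.0469, lost when any of 20 of the 23 arrays was left out). Por, the P450 reductase, was not analysed here.

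**Figure D4:**
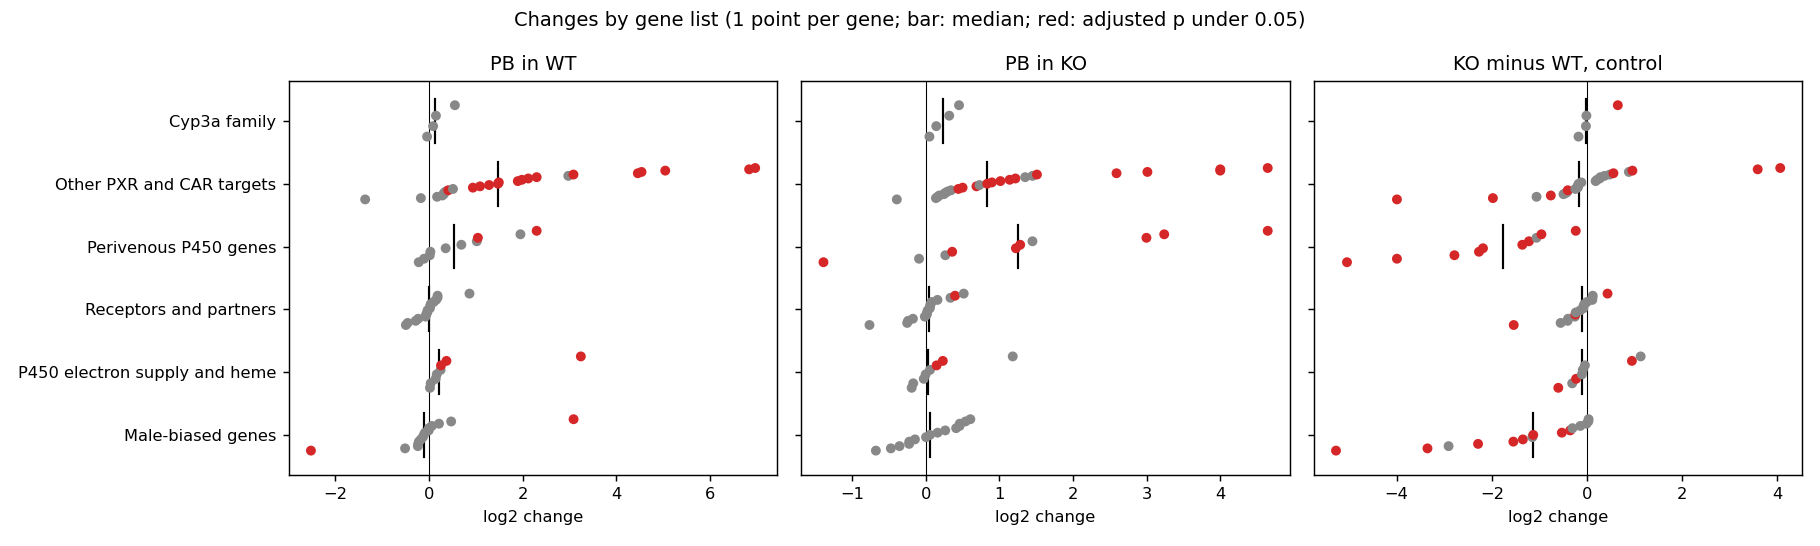
Log2 change of each tested gene by list (points; red for an adjusted p under 0.05; black bar for the list median), for PB in wild type, PB in knockout, and knockout minus wild type in controls. PXR and CAR targets reach 6.96 with PB in wild type, whereas the Cyp3a genes stay at or below 0.55, and 9 of 10 perivenous P450 genes are lower in the knockout while only Cyp3a44 among the Cyp3a genes passed, in the upward direction.

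Most perivenous P450 genes and many male-biased liver genes were lower in knockout controls. Of 10 tested perivenous P450 genes, 9 were lower in knockout than wild-type controls, as were 9.76% of all probe sets, with a list median of -1.77, among them Cyp2e1 (-5.05) and Cyp1a2, a caffeine-metabolising enzyme (-2.79, limma adjusted p = 2.34e-10). No Cyp3a gene passed as lower. Of 15 tested male-biased liver genes, 8 were lower in knockout controls (median -1.13), and of 12 tested female-biased genes, the group that Cyp3a44 is usually placed in, 2 were higher (median 0.33), against 12.8% of all probe sets. With PB the list ran the other way: none of the 12 was higher in knockout and 3 were lower (Cyp2b13, Sult1e1 and Prom1), with a median of -0.07, in a comparison where 8.15% of probe sets were lower. The higher genes without PB were Cyp2b9, a female-biased P450 gene that is also a CAR target, by 3.59 (adjusted p = 0.000111) and Rtp4 by 1.16 (adjusted p = 0.0294, and 0.51 with adjusted p = 0.362 without knockout controls 2, 6 and 7). With PB in wild type, 5 of the 12 female-biased genes rose, against 1.82% of all probe sets. Cyp2b9 rose there by 5.04 (adjusted p = 2.96e-05). In knockout 1 of the 12 rose with PB, Cyp2b13, against 1.15% of all probe sets. That call was lost when any of 16 of the 23 arrays was left out. The interaction passed for 4 of the 12, all negative, against 1.03% of all probe sets in either direction. Of 8 tested periportal genes, 1 was higher in knockout controls and none was lower, a share near the 12.8% of all probe sets. No test of one list against another was made.

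The genes whose log2 levels ran most like each member across the 23 arrays differed between members. These correlations are descriptions over arrays that share the group differences, so the value after removal of group means is given beside each. The genes named were picked as the highest among all tested, which by itself raises the values. Cyp3a11 ran closest to Gsta2 (r = 0.814, and 0.603 within groups) and Gstm3 (0.806 and 0.541), both glutathione transferases, and to Acer3, a ceramidase (0.809 and 0.387). For Cyp3a44 the closest were Adamtsl1 (0.849 and 0.316), Lrrc24 (0.837 and 0.21) and Kdsr (0.831 and 0.524). Cyp3a25 lay closest to Mks1 (0.802 and 0.82), Prm1 (0.79 and 0.789) and Ube2ql1 (0.726 and 0.779). Without wild-type control 1 the first values of these fell to 0.732, 0.776 and 0.647. Cyp3a13 lay closest to Wdr34 (0.729 and 0.713), Gtf2ird2 (0.697 and 0.736) and Pex13 (0.659 and 0.682). Without wild-type control 1 the first 2 fell to 0.653 and 0.579. Cyp3a16, at its low signal, had Fabp3 (0.776 and 0.664), Msx3 (0.733 and 0.604) and Fstl3 (0.729 and 0.564) as its closest. Between members, with group means removed, pairs ranged from -0.471 (Cyp3a11 with Cyp3a13) to 0.515 (Cyp3a25 with Cyp3a44), and Cyp3a11 with Cyp3a44 stood at 0.016.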

How the data were processed

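Liver RNA was measured on 23 Affymetrix arrays, 1 per sample. The authors deposited log2 signals per probe set, computed with RMA in the R package affy per the submitters' processing notes; versions and the arrays normalized together are not given in the sources used here. Of 45037 probe sets, 34945 carried 1 gene in the platform annotation, 932 several and 9160 none. Symbols were updated to GRCm38.p6 through the Entrez identifier for 34741, and 204 kept the platform's symbol. The array annotation can be old.

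Single-gene probe sets entered the tests when their signal in 4 or more arrays lay above that array's 40th percentile, taken over its 45037 probe sets; 24089 did and 10856 did not. Of the 5 Cyp3a probe sets, 4 did. limma 3.58.1 (R 4.3.3) fitted a mean for each of the 4 groups to the 23 arrays, and variances were moderated by empirical Bayes. Tests were two-sided, p-values were adjusted by Benjamini and Hochberg's method across the 24089, and calls were made under 0.05. The script was tested on simulated data. In gene lists a gene is represented by its probe set with the highest mean. The number of arrays limits the precision. Upstream stretches were aligned with Biopython 1.88.

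Members and lists were chosen with earlier results of these data known. Named genes were every Cyp3a probe set, up to 3 called genes of the largest change per list and comparison where a Cyp3a result touches on them, 6 further genes (Nr1i2, Nr1i3, Rxra, Cyp2b10, Cyp2e1, Ctnnb1), and the 3 genes most correlated with each member. Alternatives covered the filter, normalization, probe set choice, variance prior, array weights, a replicate block and arrays left out. Labels share replicate numbers between groups, but the 29 same-numbered pairs deviated from their group means with r between -0.648 and 0.598 (median -0.0146), so the numbers were not taken to pair samples.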

Additional observations from a re-analysis of the deposited data

Results flagged for a closer look

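In the wild-type controls, 1 array stood apart for 2 of the 5 Cyp3a genes. Wild-type control 1 read 10.65 for Cyp3a13, against 9.04 to 9.16 in the other 4, and the gap to the nearest of them was 0.925 of the whole range. The same array read 13.60 for Cyp3a25, against 13.87 to 13.96 in the others, a gap of 0.744 of the range. Chance marks about 1 in 20 groups at the critical values used, and 20 groups of 4 to 7 arrays were examined. Over all tested probe sets, 1.04% stood apart in this array by the same measure, against 0.79% to 1.84% in the other 4 wild-type controls. Acute-phase genes, chosen after their values were seen, were high in it: Saa2 was 13.07 against 8.03 to 9.95 in the other wild-type controls, and Lcn2 was 8.86 against 4.82 to 6.29. The highest Saa2 value of other groups was 14.18, in knockout PB array 3, where Cyp3a13 read 9.998, the highest of its group. The highest Lcn2 value was 13.41, in knockout control 6, where Cyp3a13 read 8.96. The part of these genes in the Cyp3a values was not tested.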

How the results depend on the processing

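Over the alternatives run, Cyp3a44 stayed called higher in knockout without PB in every one, and with PB in all but those that left out wild-type PB array 1 or 4. The averaged PB rise of Cyp3a11 and Cyp3a44 also passed in all of them. The Cyp3a count for PB in knockout moved from 0 to 1 (Cyp3a11) with the filter at the 60th percentile, quantile normalization, the mean of a gene's probe sets, the trended robust prior, array weights, and without knockout controls 2, 6 and 7, with or without wild-type control 1; single arrays left out gave 0 to 1. In wild type it moved from 0 to 2 with array weights and to 1 (Cyp3a44) with the replicate block (0.62, adjusted p = 0.0417) and with only the groups compared; single arrays left out gave 0 to 1, and 0 to 1 for knockout against wild type with PB. The replicate block changed no other call of a Cyp3a probe set. The cause of these moves was not tested.

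Counts over all probe sets moved more. For PB in wild type, 923 became 532 with 1 probe set per gene and 489 with the gene mean, which test fewer features, 2421 with array weights, 1573 with only the groups compared and 1409 without knockout controls 2, 6 and 7; single arrays left out gave 507 to 1154. For PB in knockout, 696 became 284, 301, 334 with only the groups compared, 1529 without knockout controls 2, 6 and 7, and 1459 without wild-type control 1 as well. For knockout against wild type without PB, 5444 became 3453 with 1 probe set per gene, 3106 with the gene mean, 3130 with only the groups compared, 2328 and 2074 without the arrays just named, and 3115 with the replicate block. With PB, 4410 became 2772, 2415, 7220 with array weights and 2577 with the replicate block, and 2823 to 5250 with single arrays left out. For the interaction, 247 became 121, 113, 583 with array weights, 503 and 394 without the arrays named, and 137 to 297 with single arrays left out. For the averaged PB contrast, 1678 became 882, 855, 2937 with array weights and 2665 without knockout controls 2, 6 and 7. For the averaged genotype contrast, 8860 became 5461, 5012 and 5700 with the replicate block.

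Signs turned only where neither value passed. Without knockout controls 2, 6 and 7, alone and then with wild-type control 1, PB in knockout gave Cyp3a25 -0.00358 in both and Ctnnb1 0.0225 in both. Knockout against wild type without PB gave Cyp3a13 0.039 and 0.348 and Ctnnb1 -0.0361 and -0.031, and Cyp3a25 0.0439 in the first. Averaged over treatments, Cyp3a13 gave 0.0468 and 0.201. The interaction of Cyp3a11 was 0.0456 and 0.0651, that of Cyp3a13 was -0.294 in the second, and averaged PB for Cyp3a25 was -0.0225 and -0.0524. Array weights gave 0.0138 for PB in wild type for Nr1i2, 0.0291 for Cyp3a25 between genotypes without PB, 0.032 for the interaction of Cyp3a11 and -0.0156 for averaged PB of Cyp3a25. The replicate block gave 0.0181 (Nr1i3) and -0.0416 (Cyp2e1) for PB in wild type and 0.0128 for Cyp3a25 between genotypes. Quantile normalization and median centring gave 0.0283 and 0.00696 for the interaction of Cyp3a11 and -0.00173 and -0.000727 for averaged PB of Cyp3a25, and the gene mean gave -0.0438 for Rxra between genotypes. Leaving out single arrays, ranges that crossed 0 were, for PB in wild type, -0.00429 to 0.398 (Cyp3a13), -0.0956 to 0.064 (Nr1i2) and -0.0228 to 0.0357 (Cyp2e1). Between genotypes without PB they were -0.271 to 0.131 (Cyp3a13) and -0.0716 to 0.0245 (Cyp3a25), and with PB -0.0198 to 0.108 (Cyp3a13). For the interaction they were -0.0198 to 0.0168 (Cyp3a11) and -0.0766 to 0.325 (Cyp3a13), for averaged PB -0.0246 to 0.0199 (Cyp3a25) and for the averaged genotype difference -0.108 to 0.0928 (Cyp3a13). Group mean levels of the 5 genes moved by less than 1 SD under quantile normalization and median centring. The number of arrays per group limits the precision of all of these values.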
